A study of Mus musculus with 10 samples.

Results

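Genes that mark B cells or carry their signals were followed across 10 salivary gland samples of female NOD/shiLtJ mice, a strain that develops autoimmune diabetes and lymphocytic inflammation of the salivary glands. The set was a fixed list of 32 gene symbols. The array's gene table gave 30 of them a probe set with that symbol alone, and each of the 30 had a single such probe set. Cd72 and Cd38 had none and were not used here. The 30 genes stand among 22180 genes with a one-symbol probe set, of which 18826 passed a filter on low values and were tested. All 30 passed that filter. There were 3 groups of 1 strain and sex. The diabetic group held 4 samples of 21-week-old animals with type 1 diabetes, the nondiabetic 21-week group held 3 and the nondiabetic 6-week group held 3. Nothing in the labels says that each sample came from a separate mouse, so p-values measure the spread between these samples, which may be technical. There was no treatment, transgene or deletion in the labels. RNA came from cells that an enzyme digest had freed from the gland and that were then filtered, and which salivary gland was taken is not named. Values are log2 intensities, so a difference of 1 is a doubling, and the number of arrays limits their precision.

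B cells recognise antigen through a membrane antibody that signals through its partner chains CD79A and CD79B. Kinases such as BLK and BTK and the adaptor BLNK carry the signal inward, and surface proteins such as CD22 and the complement receptor CR2 lower or raise it. PAX5 and EBF1 set B cell identity, and receptors of the TNF family tell the cell to survive or to divide. In the inflamed salivary glands of NOD mice, B cells gather with T cells around the ducts, in foci that can take on features of lymphoid follicles.

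A pair of arrays stood apart, diabetic array 4 and nondiabetic 21-week array 3. Over all probe sets the latter correlated with the rest at 0.901 to 0.93, while the remaining 9 correlated among themselves at 0.94 to 0.975. It was the lowest array for 31.5% of all genes tested. Diabetic array 4 was the highest of the 10 arrays for 27 of the 30 B cell genes, against 15.2% of all genes tested. Results below are therefore also given without these arrays. Diabetic array 4 was picked out by the values of these same genes, so leaving it out tends to narrow their spread. Calls gained without it are descriptive and give no independent support. The mean over the 30 genes was 5.10 on diabetic array 4. It was 4.12, 4.0 and 3.99 on the other diabetic arrays, 4.13, 4.0 and 3.74 on the nondiabetic 21-week arrays, and 3.67, 3.74 and 3.66 on the 6-week arrays. So 3 of the 4 diabetic arrays lay within the range of the nondiabetic arrays of the same age. In a mixed sample of gland cells, fewer or more B cells and less or more RNA per B cell cannot be told apart. Most of the probe sets were dim: the 30 genes spanned 2.26 to 6.70, while the array medians over all probe sets were 3.53 to 3.69 and the array maxima 13.13 to 13.23. Vpreb3 lay below the array median on all 10 arrays, and 4 genes (Fcrla, Spib, Tnfrsf13b and Vpreb3) fell below the 25th percentile on some arrays. Aqp5, the water channel of gland acini, was bright on all arrays (8.59 to 9.23).

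**Figure D1:**
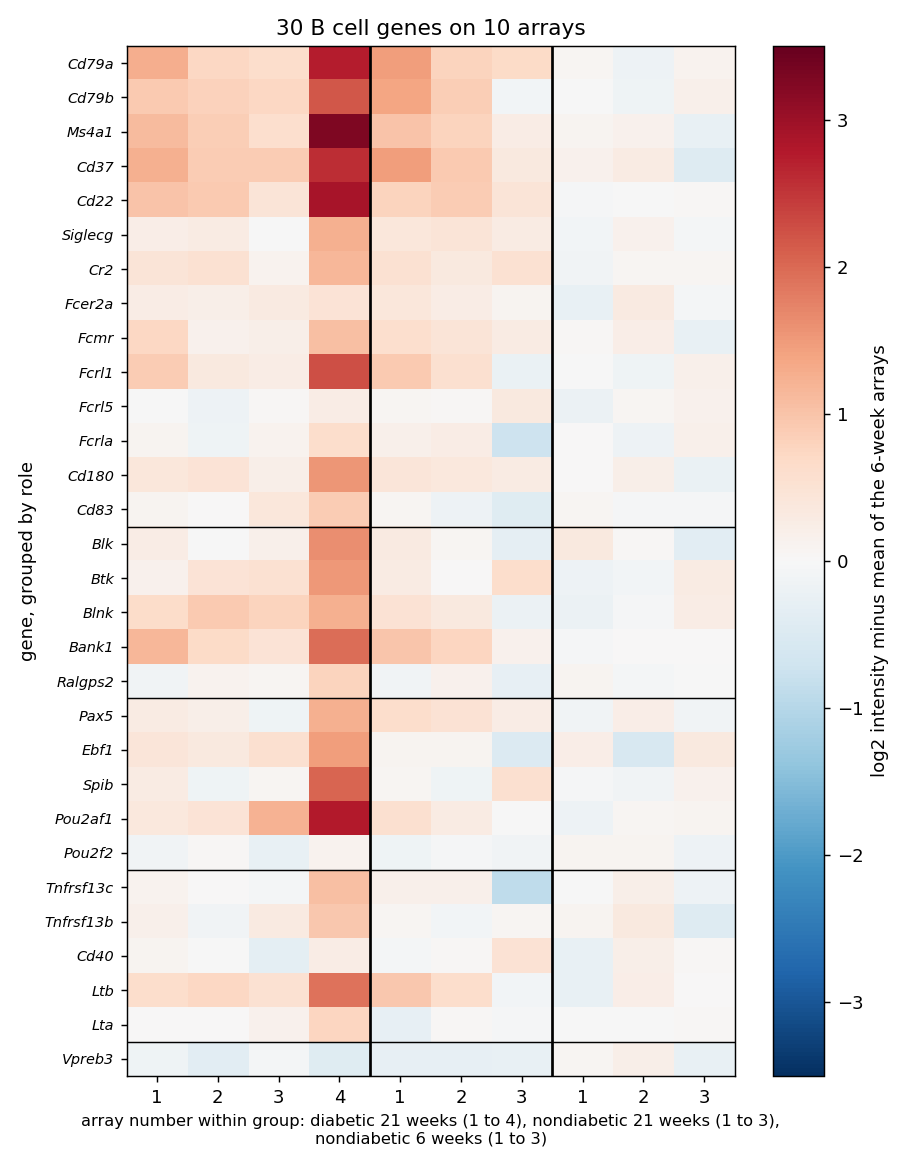
Log2 intensity of the 30 B cell genes (rows, grouped by role) on the 10 arrays (columns), with the mean of the 3 six-week arrays subtracted from each row. Red is higher and blue lower than that mean; diabetic array 4 is the highest array in 27 of the 30 rows.

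Among the antigen receptor chains, surface proteins and their relatives, Cd79a, Ms4a1, Cd22 and Cr2 had all 6-week arrays below all 21-week arrays. Fcer2a, Fcrla, Fcrl5 and Cd83 did not. Cd79a, which encodes one signalling chain of the receptor, read 4.85, 4.30, 4.21 and 6.32 on diabetic arrays 1 to 4, 5.05, 4.37 and 4.26 on the nondiabetic 21-week arrays, and 3.66, 3.40 and 3.69 on the 6-week arrays. All 7 arrays from 21-week mice lay above the 3 from 6-week mice, and the older groups overlapped. Cd79b, the partner chain, read 4.11, 3.99, 3.93 and 5.37 with diabetes, 4.58, 4.06 and 3.10 without it at 21 weeks, and 3.17, 3.04 and 3.36 at 6 weeks. Here nondiabetic 21-week array 3 fell among the 6-week arrays. Ms4a1, which encodes CD20, a membrane protein of mature B cells, read 4.27, 4.04, 3.77 and 6.44, then 4.17, 3.96 and 3.44, then 3.28, 3.32 and 2.93 in the same order. Its 6-week arrays again lay below all others, and nondiabetic 21-week array 3 came closest to them. Cd22, an inhibitory receptor that binds sialic acid, read 4.60, 4.5, 4.03 and 6.49 with diabetes, 4.36, 4.47 and 4.03 in the nondiabetic 21-week group, and 3.56, 3.58 and 3.63 at 6 weeks. Its 6-week arrays were the tightest of these 4 genes (3.59 ± 0.04, SD, n = 3).

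Cr2, the complement receptor that follicular dendritic cells also carry, read 3.32, 3.41, 2.99 and 4.03 with diabetes, 3.42, 3.23 and 3.41 without it at 21 weeks, and 2.75, 2.93 and 2.94 at 6 weeks. The older arrays all exceeded the younger ones. Fcer2a, the low-affinity IgE receptor CD23 of follicular B cells, moved little: 3.55, 3.5, 3.62 and 3.77, then 3.68, 3.56 and 3.39, then 3.04, 3.62 and 3.23. Its groups overlapped in each comparison. Cd37, a tetraspanin of B cells and other leukocytes, had group means of 5.52 ± 0.80 (SD, n = 4), 5.02 ± 0.56 (SD, n = 3) and 4.12 ± 0.39 (SD, n = 3) in the diabetic, nondiabetic 21-week and 6-week mice. Siglecg, an inhibitory lectin, Fcmr, the IgM receptor, and Cd180, a Toll-like receptor relative, were each higher in all nondiabetic 21-week arrays than in all 6-week arrays. Among the Fc receptor-like genes, Fcrl1 was 4.18 ± 0.93 (SD, n = 4) with diabetes and 3.24 ± 0.16 (SD, n = 3) at 6 weeks, and these groups did not overlap. Fcrl5 and Fcrla overlapped between all groups. Cd83, a surface protein of activated B cells and dendritic cells, read 5.28, 5.18, 5.56 and 6.06 with diabetes, 5.23, 4.99 and 4.74 without it at 21 weeks, and 5.25, 5.14 and 5.13 at 6 weeks. It was not lower at 6 weeks than in older nondiabetic glands.

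**Figure D2:**
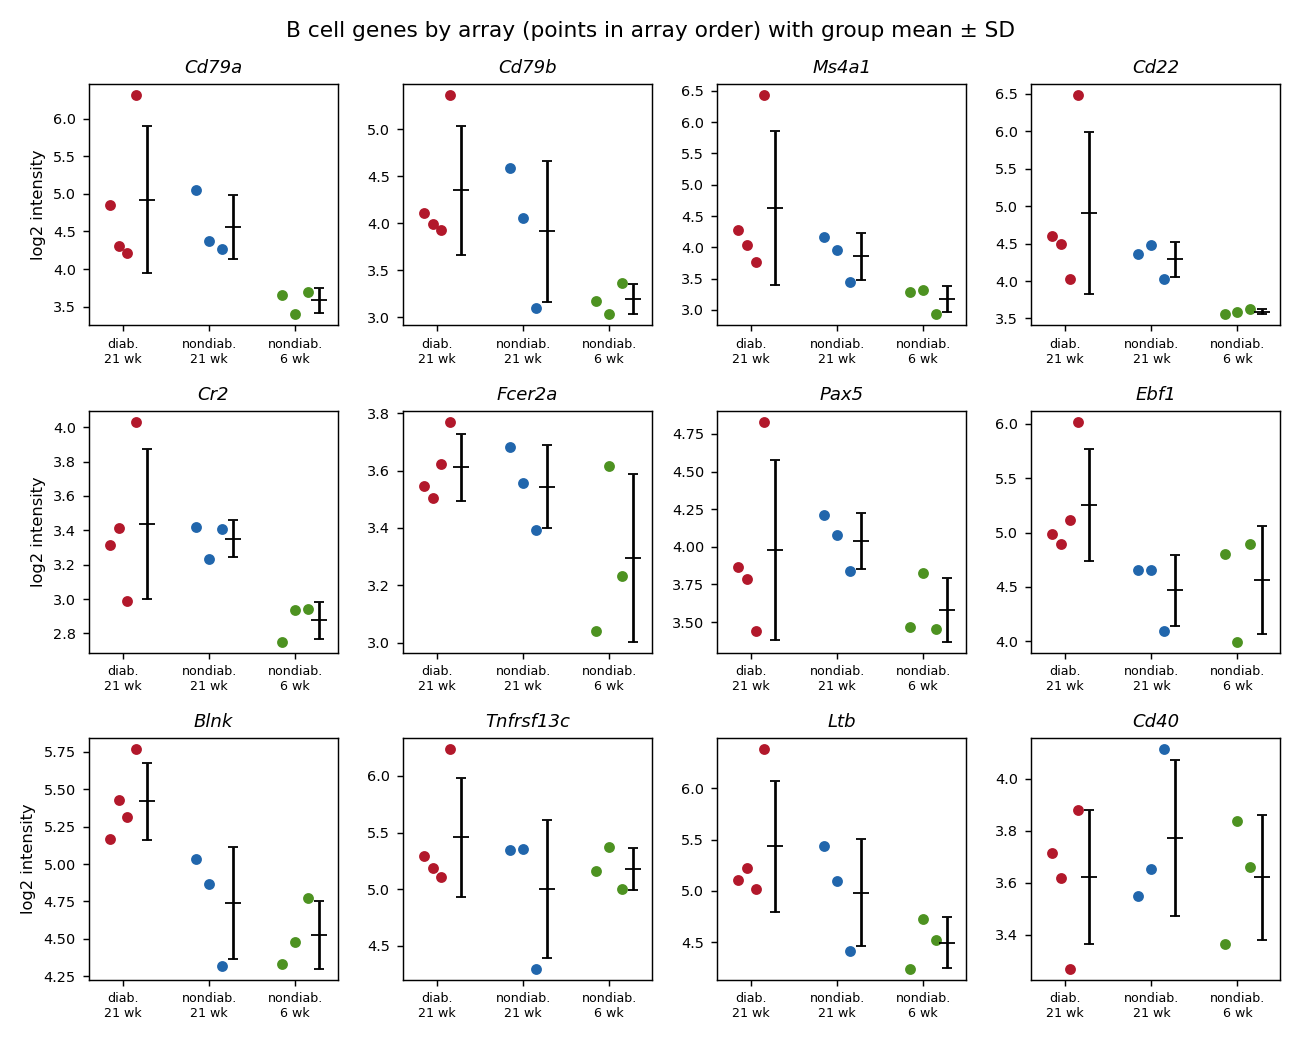
Log2 intensity (vertical axis) of 12 B cell genes on each array, in the 3 groups, as points in array order from left to right; the dash and bars are the group mean and SD. In most panels the fourth diabetic point stands above the rest, while for Cd79a, Ms4a1, Cd22 and Cr2 all 6-week points lie below all 21-week points.

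Of the signalling genes, Blnk, the adaptor that links the receptor's kinases to phospholipase C, was the 1 gene of the 30 that passed the test. It read 5.16, 5.43, 5.31 and 5.77 on the diabetic arrays, 5.04, 4.87 and 4.32 on the nondiabetic 21-week arrays and 4.33, 4.48 and 4.77 on the 6-week arrays. All 4 diabetic arrays lay above all 6 nondiabetic arrays. Between the diabetic and the 6-week mice it rose 1.86-fold (log2 change 0.89 ± 0.19, limma with Benjamini-Hochberg adjustment over all genes, adjusted p = 0.0415). Against nondiabetic mice of the same age the change was 0.68 ± 0.19 (adjusted p = 0.111). The first call was lost without diabetic array 2 (adjusted p = 0.0942), 3 (0.092) or 4 (0.0777), without nondiabetic 21-week array 2 (0.0573), without 6-week array 1 (0.167), 2 (0.153) or 3 (0.0889), without the filter on low values (0.0533) and with the replicate number as a block (0.133). Without both arrays that stand apart, Blnk was 0.78 ± 0.14 higher (adjusted p = 0.0157). Blnk is also used by macrophages. Of 13 macrophage and dendritic cell markers 0 passed between diabetic and 6-week mice, while 2 rose between diabetic and nondiabetic 21-week mice. Their mean level was 5.11 to 5.55 in diabetic, 4.72 to 4.86 in nondiabetic 21-week and 4.58 to 5.01 in 6-week arrays. Their part in the Blnk result was not tested.

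Bank1, a scaffold of receptor signalling, had means of 4.73 ± 0.66 (SD, n = 4), 4.29 ± 0.42 (SD, n = 3) and 3.66 ± 0.03 (SD, n = 3) in the diabetic, nondiabetic 21-week and 6-week groups, with the 6-week arrays below all others. Blk, a Src-family kinase of B cells, was 4.11 on average without diabetes at 21 weeks and 4.09 at 6 weeks, a difference of 0.01 ± 0.35. Its diabetic mean of 4.60 rested on array 4 at 5.71, as the other 3 read 4.34, 4.09 and 4.28. Btk, the kinase whose loss blocks B cell development in people, and Ralgps2, a guanine nucleotide exchange factor, overlapped between groups in all comparisons.

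The transcription factors did not move as a block. Pax5 read 3.86, 3.78, 3.44 and 4.83 on the diabetic arrays, 4.21, 4.08 and 3.84 on the nondiabetic 21-week arrays and 3.47, 3.83 and 3.45 on the 6-week arrays. Its 3 lower diabetic arrays thus lay at the level of the 6-week glands or just above it, and without array 4 the diabetic minus nondiabetic difference was −0.35 ± 0.16 (adjusted p = 0.325). Ebf1, which acts early in B cell specification and is also active in fat and stromal cells, read 4.99, 4.89, 5.11 and 6.02 with diabetes, 4.66, 4.65 and 4.09 without it at 21 weeks and 4.80, 4.0 and 4.90 at 6 weeks. Every diabetic array exceeded every nondiabetic array of the same age, and the difference was 0.79 ± 0.28 (adjusted p = 0.205) with array 4 and 0.53 ± 0.23 (adjusted p = 0.292) without it. Of 8 adipocyte markers 4 rose in that comparison, with mean levels of 4.77 to 5.22 in diabetic, 3.64 to 4.13 in nondiabetic 21-week and 4.0 to 4.14 in 6-week arrays. Of 8 pericyte and fibroblast markers 1 rose, with mean levels of 5.48 to 5.74, 4.78 to 5.20 and 5.16 to 5.97. That 1 was Abcc9, whose call was lost under 15 of 20 alternatives. Among the adipocyte calls, Retn was lost under 11 of 20, Fabp4 under 3, Pck1 under 1 and Car3 under 0. The part of these cell types in the Ebf1 values was not tested.

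Pou2af1, the coactivator OBF-1 that B cells use with octamer-binding factors, read 3.61, 3.75, 4.47 and 6.03 with diabetes and 3.07 to 3.82 in the other 6 arrays. Diabetic array 3 was second to array 4 here. Pou2f2, the octamer-binding factor OCT-2 itself, stayed between 3.5 and 3.88 on all arrays. Spib, an ETS factor of B cells and plasmacytoid dendritic cells, read 4.45 on diabetic array 4 and 2.26 to 2.96 elsewhere, and it passed the low-value filter through 3 arrays only.

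Receptors and ligands of the TNF family differed among themselves. Ltb, a lymphotoxin chain that lymphocytes use to shape lymphoid tissue, read 5.10, 5.23, 5.02 and 6.38 with diabetes, 5.43, 5.10 and 4.41 without it at 21 weeks and 4.24, 4.73 and 4.52 at 6 weeks. The diabetic and 6-week arrays did not overlap. Lta, the partner chain, read 3.76, 3.76, 3.89 and 4.50, then 3.45, 3.78 and 3.72, then 3.72, 3.72 and 3.80, so that diabetic array 4 lay above a range shared by the 3 groups. Tnfrsf13c, the survival receptor for BAFF, read 5.30, 5.19, 5.10 and 6.24 with diabetes, 5.35, 5.35 and 4.30 without it at 21 weeks and 5.16, 5.37 and 5.0 at 6 weeks. Diabetic array 4 was its highest array and nondiabetic 21-week array 3 its lowest, and the other arrays of the 3 groups overlapped. Cd40, the receptor for T cell help, read 3.72, 3.62, 3.27 and 3.88, then 3.55, 3.65 and 4.11, then 3.37, 3.84 and 3.66, and the groups overlapped throughout. Tnfrsf13b, which encodes TACI, a receptor for BAFF and APRIL, ranged from 2.30 to 3.70. Vpreb3, a surrogate light chain relative of early B cells, ranged from 2.53 to 3.14 and was the 1 gene with diabetic array 4 as its lowest array.

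Between diabetic and nondiabetic mice of 21 weeks, the contrast named in the series text, 0 of the 30 genes passed by limma, against 1.44% of all genes tested (1.1% higher and 0.34% lower). At an unadjusted p under 0.05, 3 of the 30 were higher and 0 lower, against 10.8% of all genes that were higher. The smallest adjusted p was that of Blnk. The median log2 change of the 30 was 0.37, beside 0.03 over all genes, and 27 of the 30 lay above 0, against 56% of all genes. That shift came down to 0.10 without diabetic array 4, with 21 of 29 above 0, and to −0.06 without both arrays that stand apart, with 9 above 0. Blnk and Ebf1 were the 2 genes whose diabetic arrays did not overlap the nondiabetic ones on the higher side, and 0 did so on the lower side, against 9.11% and 4.98% of all genes. A share of 2 in 30 is not above that background. Without diabetic array 4 the same 2 were higher and 2 were lower (Fcrl5 and Siglecg), against 14.3% and 7.52% of all genes. Without both arrays that stand apart, 2 were higher and 5 lower (Fcrl5, Fcrla, Pax5, Siglecg and Tnfrsf13c), against 16.8% and 17.6%.

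Age was compared between the nondiabetic mice of 21 and 6 weeks. By limma 0 of the 30 passed, against 0.0266% of all genes, or 5 genes in all (0.00531% higher and 0.0212% lower). At an unadjusted p under 0.05, 3 were higher, against 2.19% of all genes, and 0 lower. The smallest adjusted p was that of Cd79a (1.97-fold higher at 21 weeks, log2 change 0.98 ± 0.43, adjusted p = 0.644). The median change was 0.26 and that of all genes −0.06, and 22 of the 30 lay above 0, against 38.2% of all genes. In 10 of the 30 genes each older array lay above each younger one, against 4.11% of all genes, and in 0 did each lie below, against 9.73%. The 10 were Bank1, Cd180, Cd22, Cd37, Cd79a, Cr2, Fcmr, Ms4a1, Pax5 and Siglecg. Without nondiabetic 21-week array 3 the count was 16 higher and 1 lower (Vpreb3), against 12.3% and 13.2% of all genes. Because the 3 groups share 1 estimate of the spread, diabetic array 4 widened the errors of this comparison too. Without it the SE of Cd79a went from 0.43 to 0.22 and that of Cd22 from 0.45 to 0.17, and 11 of 29 genes had an unadjusted p under 0.05 (2.72% of all genes), still with 0 past the adjusted threshold (Cd79a, adjusted p = 0.237). With only the 2 nondiabetic groups fitted, 10 of the 30 were higher at an unadjusted p under 0.05, against 2.37% of all genes, and 0 passed the adjusted threshold. With each of the other arrays left out in turn, this unadjusted count of higher genes ran from 0 to 6. It was 0 when diabetic array 1, nondiabetic 21-week array 1, 6-week array 1 or 6-week array 3 was omitted, 1 when nondiabetic 21-week array 2 was, and 6 when nondiabetic 21-week array 3 was. Without both arrays that stand apart, Cd79b was the 1 gene of 29 that rose (1.13 ± 0.17, adjusted p = 0.0273), against 0.225% of all genes called.

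Diabetic mice at 21 weeks were also set against nondiabetic mice at 6 weeks, a comparison in which disease and age cannot be told apart and which shares its groups with the other comparisons. Blnk was the 1 of 30 that rose by limma and 0 fell, against 1.44% of all genes called, 0.903% that rose and 0.542% that fell. At an unadjusted p under 0.05, 15 of the 30 were higher, against 7.7% of all genes, and 0 were lower. The median change was 0.55, beside −0.02 over all genes, and 27 of the 30 lay above 0, against 46% of all genes. The largest fitted changes were those of Ms4a1 (2.74-fold, 1.45 ± 0.49, adjusted p = 0.175), Cd37 (2.64-fold, 1.40 ± 0.38, adjusted p = 0.0959), Cd79a (2.53-fold, 1.34 ± 0.40, adjusted p = 0.131) and Cd22 (2.49-fold, 1.31 ± 0.42, adjusted p = 0.161). In 11 of the 30 genes all diabetic arrays lay above all 6-week arrays, against 8.2% of all genes, and in 0 below, against 8.49%. The 11 were Bank1, Blnk, Cd22, Cd37, Cd79a, Cd79b, Cr2, Fcrl1, Ltb, Ms4a1 and Pou2af1.

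Leaving out diabetic array 4 made the changes from 6 weeks smaller and more even. Its removal took the median to 0.36, and Ms4a1 to 0.85 ± 0.20 (adjusted p = 0.0694). Cd22 was then the 1 gene of 29 that rose (0.79 ± 0.17, adjusted p = 0.0471) in place of Blnk, against 1.41% of all genes called. Without both arrays that stand apart, 6 genes rose, against 2.72% of all genes called: Bank1, Blnk, Cd22, Cd37, Cd79b and Ms4a1. Their changes there lay between 0.77 (Bank1) and 1.01 (Cd37).

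**Figure D3:**
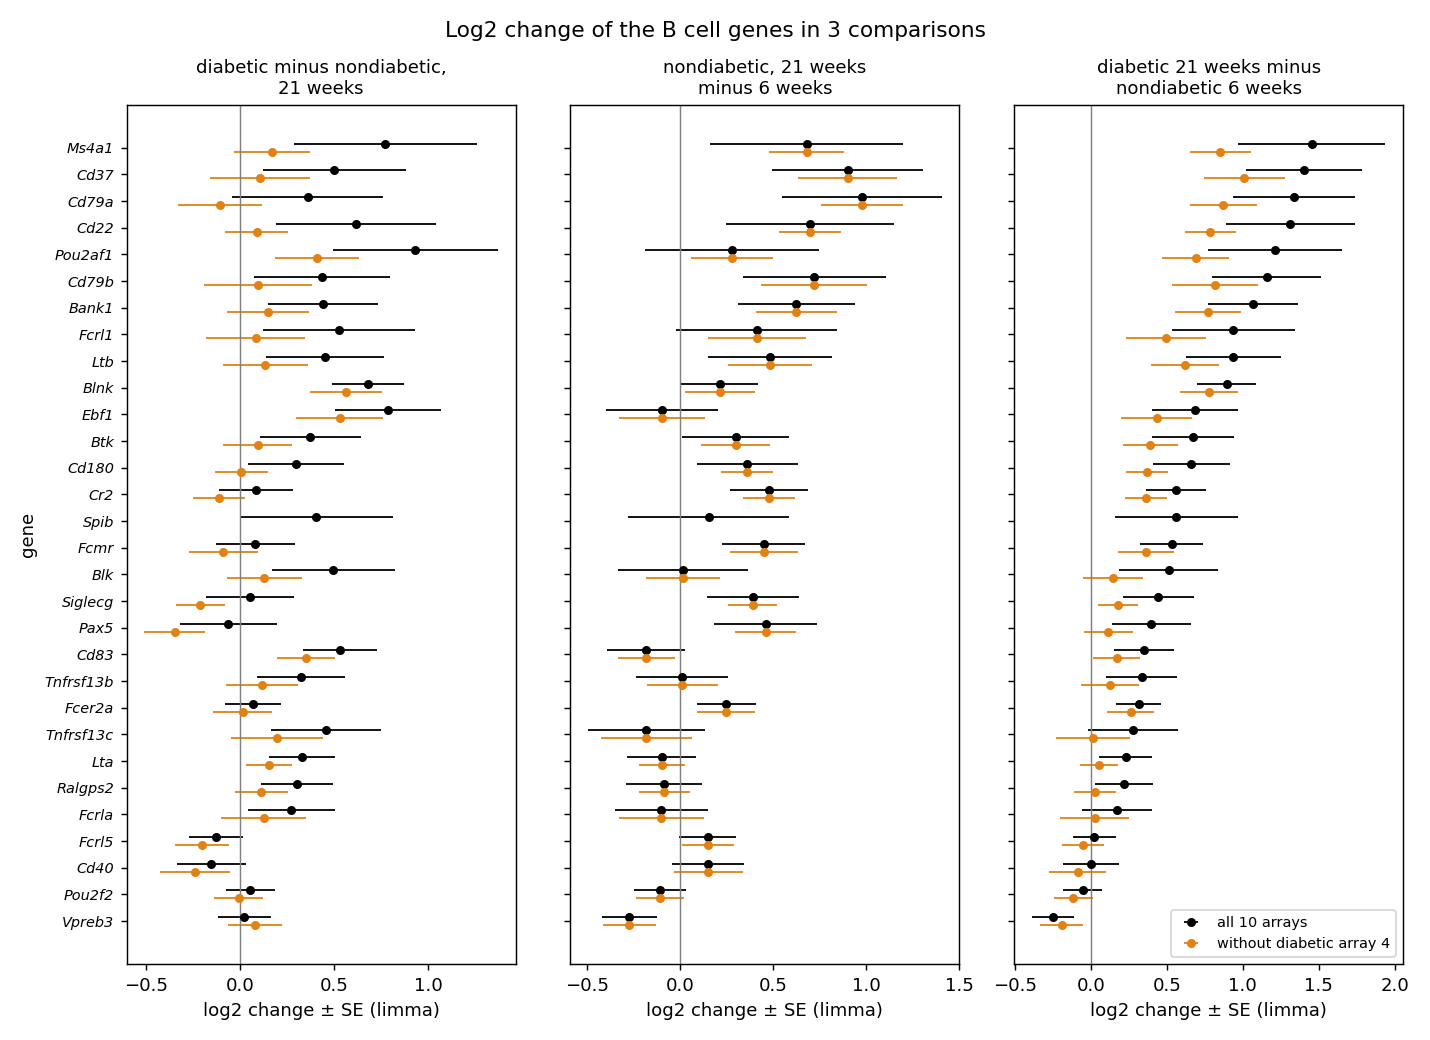
Log2 change with its SE (horizontal axis) for each B cell gene (vertical axis) in the 3 comparisons, fitted with all 10 arrays (black) and without diabetic array 4 (orange; Spib then failed the low-value filter). Leaving that array out takes the median of the left panel from 0.37 to 0.10, with some genes such as Pax5 moving further below 0, while the middle panel keeps its values with shorter bars.

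Diabetic array 4 was at least 2-fold above the mean of its 3 companions in 17 of the 30 genes, against 1.22% of all genes tested. The median excess was 1.05 on the log2 scale, and −0.00 over all genes. It was greatest for Ms4a1 (5.33-fold), Cd22 (4.32-fold), Pou2af1 (4.26-fold), Spib (3.93-fold), Cd79a (3.64-fold) and Fcrl1 (3.41-fold). It was small for Fcer2a (1.16-fold), Pou2f2 (1.19-fold), Fcrl5 (1.23-fold) and Cd40 (1.27-fold). Blnk, the gene that passed the test, had an excess of 1.38-fold. For 5 of the 30 genes array 4 lay far above the other diabetic arrays, against 1.74% of all genes. Germinal centre markers on that array were mixed: 7 of 10 read highest there, against 15.2% of all genes tested. They included Mki67, a proliferation gene (5.62, against 3.54 to 4.07 elsewhere). Bcl6, the master regulator of germinal centre B cells, was not among them (5.84, against 5.51 to 6.46).

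Promoters of 2 genes are shown because Blnk passed the test and Vpreb3 was the only gene lowest on diabetic array 4, and both hold the octamer that OCT-2 and OBF-1 bind. Cd22 and Cd37 follow as genes with large differences from the 6-week mice that also hold a motif match. The promoters shown were thus picked partly for their matches, which most promoters of the listed genes lack. Cd79a had a larger fitted change from 6 weeks than Cd22, but its promoter holds no match and is not shown. Each run is the 250 bases before the annotated start in RefSeq (GRCm38.p6), 5′ to 3′ on the gene's strand, with motif matches in capitals. RefSeq gave a promoter for 27 of the 32 listed symbols, unmeasured Cd72 and Cd38 included.
Blnk, chr19:40994222-40994471, minus strand: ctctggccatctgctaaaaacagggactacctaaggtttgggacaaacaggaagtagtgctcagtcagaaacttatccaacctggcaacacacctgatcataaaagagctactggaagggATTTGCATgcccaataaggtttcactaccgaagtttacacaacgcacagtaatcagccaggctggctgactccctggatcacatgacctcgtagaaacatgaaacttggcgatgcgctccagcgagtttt
Vpreb3, chr10:75948050-75948299, plus strand: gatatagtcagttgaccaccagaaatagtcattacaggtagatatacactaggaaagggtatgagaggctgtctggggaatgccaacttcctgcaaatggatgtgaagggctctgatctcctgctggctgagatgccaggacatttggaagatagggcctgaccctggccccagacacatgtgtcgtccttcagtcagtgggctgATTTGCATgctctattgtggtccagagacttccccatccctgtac
Cd22, chr7:30879029-30879278, minus strand: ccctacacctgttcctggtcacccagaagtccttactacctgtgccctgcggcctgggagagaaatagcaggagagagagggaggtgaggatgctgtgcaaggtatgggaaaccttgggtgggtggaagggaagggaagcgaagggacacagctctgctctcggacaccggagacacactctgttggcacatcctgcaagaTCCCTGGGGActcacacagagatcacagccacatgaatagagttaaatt
Cd37, chr7:45238840-45239089, minus strand: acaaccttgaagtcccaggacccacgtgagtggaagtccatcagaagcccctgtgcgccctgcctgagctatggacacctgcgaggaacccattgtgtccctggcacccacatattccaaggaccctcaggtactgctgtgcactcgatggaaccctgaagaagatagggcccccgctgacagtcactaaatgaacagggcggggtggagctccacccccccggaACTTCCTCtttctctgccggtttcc

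Motifs were searched on both strands, counting a gene once. The octamer ATGCAAAT lay in 2 of the 27 promoters, those of Blnk (its far end 130 bases before the start, reverse strand) and Vpreb3 (45 to 38 bases before it, reverse strand), and in 1.81% of all 27025 genes with a promoter. The EBF motif, TCCC and GGGA with 2 bases between them, lay in 1 of the 27, that of Cd22 (49 to 40 bases before the start), and in 0.914% of all. The PU.1 motif GAGGAAGT, which SPIB can also bind, lay in 3 of the 27, those of Cd37, Cd72 and Fcrl1, and in 2.79% of all. A match is a description of these letters and not a bound site. Of the genes with an octamer, Blnk read highest and Vpreb3 lowest on diabetic array 4.

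Of 20 further genes of receptor signalling, 17 had a one-symbol probe set and all 17 passed the filter. Between diabetic and 6-week mice 1 rose and 0 fell: Pik3ap1, the adaptor BCAP that couples receptors to phosphoinositide 3-kinase (0.66 ± 0.14, adjusted p = 0.0408). Its values were 7.23, 7.01, 6.85 and 7.42 with diabetes, 7.01, 6.81 and 6.95 without it at 21 weeks and 6.43, 6.52 and 6.44 at 6 weeks. All older arrays lay above the younger ones, and the call was lost under 12 of 20 alternatives, with adjusted p = 0.148 without 6-week array 3. In the other 2 comparisons 0 of the 17 passed by limma. At an unadjusted p under 0.05, 4 and 2 were higher, against 10.8% and 2.19% of all genes. Ptprc, the leukocyte phosphatase CD45, read 5.80, 5.96, 5.84 and 8.10, then 6.06, 5.85 and 5.30, then 4.95, 4.45 and 4.12 (diabetic minus 6-week 1.92 ± 0.46, adjusted p = 0.067). Like Cd79a it was low at 6 weeks and highest on diabetic array 4.

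Partners of the TNF family receptors showed no call. Of 12 listed genes 10 had a probe set and 9 passed the filter, and by limma 0 passed in the 3 comparisons. At an unadjusted p under 0.05, 1, 0 and 2 were higher, against 10.8%, 2.19% and 7.7% of all genes. Tnfsf13b, which encodes the survival factor BAFF, was 4.13 ± 0.14 (SD, n = 4), 3.96 ± 0.11 (SD, n = 3) and 3.91 ± 0.19 (SD, n = 3) in the diabetic, nondiabetic 21-week and 6-week mice. Cd40lg, the T cell ligand of CD40, exceeded the 25th percentile on 1 array and was not tested. Of 7 listed B cell progenitor genes, 5 were tested and 0 passed by limma in the 3 comparisons. At an unadjusted p under 0.05, 1, 0 and 1 were higher, against the same shares of all genes, and 1, 1 and 1 were lower.

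The follicle list held 9 measured genes. Cxcl13, the chemokine that draws B cells into follicles, rose with diabetes against both other groups (3.35 ± 0.48, adjusted p = 0.00482, and 2.83 ± 0.48, adjusted p = 0.014). It read 7.10, 7.03, 8.58 and 9.19 with diabetes, 5.25, 4.60 and 4.04 without it at 21 weeks and 5.54, 4.62 and 5.29 at 6 weeks. All 4 diabetic arrays lay above all 6 nondiabetic arrays, and the change with age was not past the threshold (−0.52 ± 0.51, adjusted p = 0.836). The call against 6-week mice was lost without diabetic array 3 (adjusted p = 0.0519) and without 6-week array 2 (0.0785) or 3 (0.0649). Its receptor Cxcr5 read 4.03, 4.18, 3.65 and 5.58, then 4.37, 4.48 and 4.24, then 4.02, 3.88 and 3.98, so that diabetic arrays 1 to 3 lay below all nondiabetic arrays of the same age. The diabetic minus nondiabetic change of Cxcr5 was −0.01 ± 0.33 (adjusted p = 0.995). Glycam1, a ligand for lymphocyte homing on lymph node vessels, read 5.54 on diabetic array 4 and 2.90 to 3.75 on the other 9. Of the 9 follicle list genes, 5 were highest on that array, against 15.2% of all genes tested. Madcam1, Chst4, Fut7 and Vcam1 were not (3.84, 2.61, 3.32 and 5.02 there).

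Diabetic array 4 was also the highest array for the mean of the T cell and plasma cell lists. All 15 measured T cell genes were highest on diabetic array 4, against 15.2% of all genes tested. Their mean was 5.20 there, 4.06 to 4.09 on the other diabetic arrays, 3.89 to 4.43 on the nondiabetic 21-week arrays and 3.54 to 3.69 on the 6-week arrays. Cd3g, a chain of the T cell receptor complex, was the 1 of 15 that rose between diabetic and 6-week mice (1.97 ± 0.33, adjusted p = 0.0122). In the other comparisons 0 passed, with 1 and 4 higher at an unadjusted p under 0.05, against 10.8% and 2.19% of all genes. That call of Cd3g was lost without 6-week array 1 (adjusted p = 0.0543), 2 (0.06) or 3 (0.0626). Cd3e, another chain, read 5.32, 5.52, 5.84 and 7.45 with diabetes, 5.71, 5.23 and 4.27 without it at 21 weeks and 4.38, 4.09 and 4.29 at 6 weeks (diabetic minus 6-week 1.78 ± 0.44, adjusted p = 0.0713). The part of T cells in the B cell values was not tested. The mean of 9 plasma cell genes was 7.51 on diabetic array 4, 6.45 to 6.91 on the other diabetic arrays, 6.28 to 6.5 in nondiabetic 21-week and 5.90 to 6.24 in 6-week arrays. Of these 9 genes, 5 were highest on diabetic array 4, against 15.2% of all genes tested. Derl3 (7.70) and Fkbp11 (6.59) were lowest on that array. At an unadjusted p under 0.05, 4 of the 9 were higher between diabetic and nondiabetic 21-week mice, against 10.8% of all genes, and 1 was lower. By the adjusted p, Xbp1 was the 1 of the 9 that rose there (0.61 ± 0.12, adjusted p = 0.025) and 0 fell. That call was lost without diabetic array 1, 2 or 3 or nondiabetic 21-week array 1 or 3 (adjusted p 0.0578 to 0.0814). With age 0 passed by limma, with 2 higher (2.19% of all genes) and 1 lower at an unadjusted p under 0.05. Between diabetic and 6-week mice 3 of the 9 rose and 1 fell, with 5 higher (7.7% of all genes) and 1 lower at an unadjusted p under 0.05. Derl3, an endoplasmic reticulum protein of secretory cells, fell by 0.87 ± 0.13 (adjusted p = 0.00713). Xbp1, a factor of secretory cells that the gland's acini also use, rose (0.56 ± 0.12, adjusted p = 0.0369), a call lost without any of diabetic arrays 1 to 3, nondiabetic 21-week array 2 or the 3 six-week arrays (adjusted p 0.0505 to 0.162). The other genes that rose were Ighm, the heavy chain of IgM that B cells share (2.34 ± 0.45, adjusted p = 0.0284), and Jchain, which joins secreted antibodies (3.18 ± 0.54, adjusted p = 0.0145). Without diabetic array 3 or 6-week array 2 or 3 neither passed (adjusted p of Ighm 0.0754, 0.0862 and 0.119, of Jchain 0.052, 0.0747 and 0.0889), and Ighm also failed without 6-week array 1 (0.0855). With a trended and robust variance Cxcl13, Ighm and Jchain missed the threshold against 6-week mice (adjusted p = 0.0584, 0.0905 and 0.0707). Ighm read 10.13, 9.44, 10.54 and 12.09 with diabetes, 9.36, 9.76 and 9.05 without it at 21 weeks and 8.29, 8.38 and 7.97 at 6 weeks. As for Cd79a, all 6-week arrays lay below all older ones.

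The gland's own makeup differed between groups as well. The 6 parotid-type cargo genes averaged 10.28 to 10.74 on the diabetic arrays, 4.28 to 6.68 on the nondiabetic 21-week arrays and 4.85 to 8.66 on the 6-week arrays. All 6 rose between diabetic and nondiabetic 21-week mice, and the part of this difference in the B cell values was not tested. The mean of 7 epithelial genes was 7.29 on diabetic array 4, the lowest of all, and 7.33 to 7.73 on the others.

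**Figure D4:**
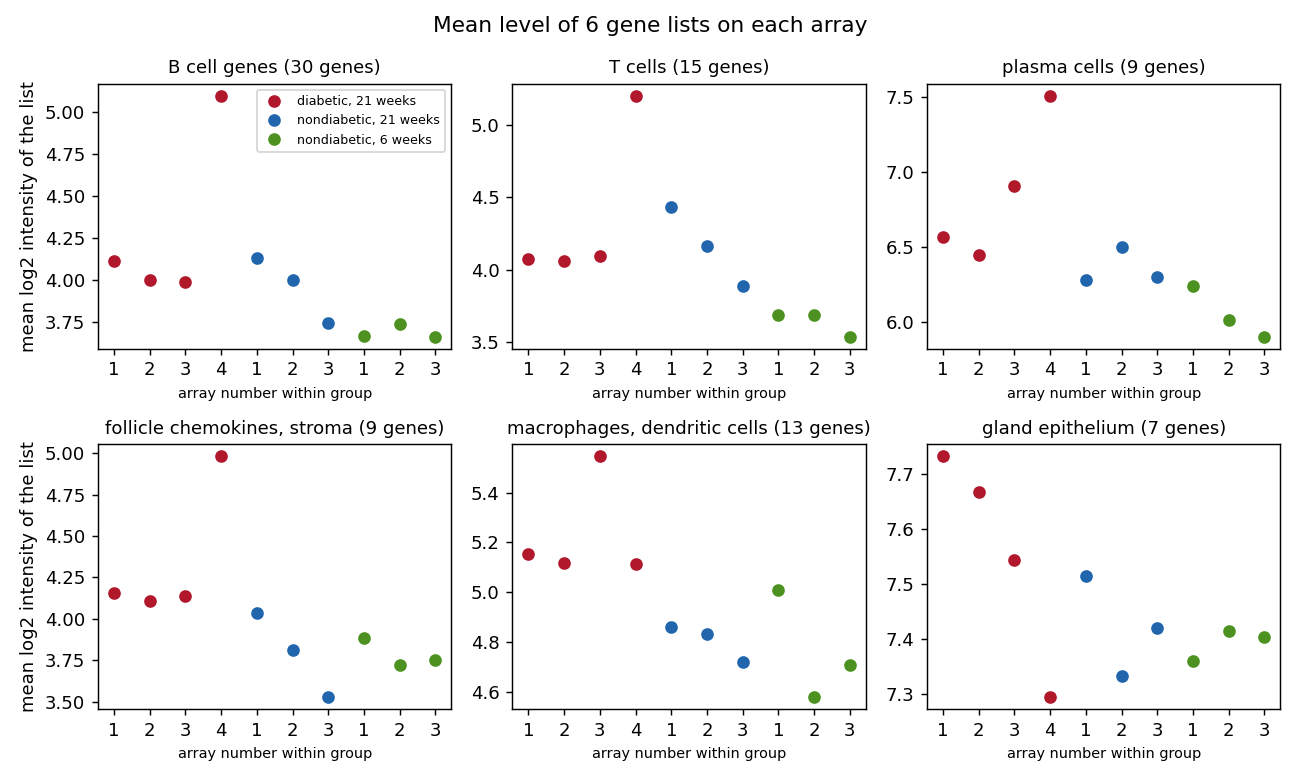
Mean log2 intensity (vertical axis) of 6 gene lists on each array (horizontal axis, array number within group; red diabetic 21 weeks, blue nondiabetic 21 weeks, green nondiabetic 6 weeks). The B cell, T cell, plasma cell and follicle lists peak on diabetic array 4, whereas the epithelial list is lowest there and the macrophage list is highest on diabetic array 3.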

How the data were processed

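Gland cell RNA of 10 samples was measured on Affymetrix arrays, 1 per sample. The authors deposited log2 values for each probe set. Per the submitters' processing notes, these were made with Affymetrix Power Tools and RMA. Their versions and settings are not given here. RMA equalises array distributions and compresses differences of dim probe sets. Of 41345 probe sets, 23521 had 1 gene symbol, 1814 had several and 16010 were unnamed here. One-symbol probe sets above the array's 25th percentile on at least 3 arrays were kept, and the brightest stood for each gene. All 10 arrays entered 1 model with a mean per group (limma 3.58.1, R 4.3.3, lmFit and eBayes, 7 residual degrees of freedom). P-values were two-sided and adjusted by the Benjamini-Hochberg method over 18826 genes, with a threshold of 0.05. The SE is that of the fit.

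No array pair was identical. No scan date or other batch is in the labels. The comparisons share groups and are not independent. The members, the other lists and the rule for named genes were chosen with earlier results of these data known. Array values are given for the gene that passed and for fixed genes, Blk and Pou2af1 were added after their values were seen, and others have group values, ranges or counts. From the other lists, genes past the threshold and fixed genes are named, not all that the rule admits. The steps were tested on simulated data. Alternatives were other filters, probe set means, fits of 2 groups, quantile and median scaling, another variance model, array weights, the replicate number as a block, and arrays left out.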

Additional observations from a re-analysis of the deposited data

Results flagged for a closer look

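Within the 4 diabetic arrays, array 4 stood far from its companions for 5 of the 30 B cell genes, judged by its gap to the nearest other array as a share of the group's range (Dixon's 95% limit for 4 samples). Chance alone puts about 1 in 20 groups past that limit, counting any of the 4 arrays on either side. Of all genes tested, 1.74% had array 4 far above the other diabetic arrays. That share counts array 4 alone on the high side, so it cannot be set against 1 in 20. The log2 intensity on array 4 was 5.37 for Cd79b (gap 0.872 of the range), 6.38 for Ltb (0.849), 5.71 for Blk (0.844), 6.24 for Tnfrsf13c (0.831) and 4.50 for Lta, which was just past the limit. Ms4a1 (gap 0.813) and Ebf1 (0.805) lay just inside the limit.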

How the results depend on the processing

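In the comparison of diabetic and nondiabetic 21-week mice 0 of the 30 B cell genes passed under each of 20 alternatives, and the median change ranged from 0.10 to 0.50 with single arrays left out. With age, 0 passed under 19 of 20, and 1 without both arrays that stand apart, against 0.225% of all genes called. The median change with age was 0.18 to 0.40 with single arrays left out. Between diabetic and 6-week mice the count of 1 was 0 without the low-value filter and 2 with array weights, against 0.992% and 3.57% of all genes called. It was 4 with the replicate block and 6 without both arrays, against 1.09% and 2.72%. With single arrays left out it was 0 to 1 (median 0.36 to 0.68). The replicate numbers gave no strong pairing of the arrays: 0 of 9 same-numbered pairs had deviations correlated above 0.1 (−0.12 to 0.07). For 0 of 9 arrays was the own number the best match in both other groups. Between the 2 nondiabetic groups the own number was the best match each time, at low correlations (0.03, 0.07 and 0.05 for numbers 1, 2 and 3). Diabetic array 4 has no partner in that block and so drops out of it. Over all genes the calls with single arrays left out were 84 to 267 (271 with all) for diabetes, 1 to 10 (5) for age and 48 to 400 (272) for both. They were 161, 0 and 310 when only the 2 groups compared were fitted, 367, 18 and 672 with array weights, 364, 12 and 369 with the trended and robust variance, and 176, 42 and 508 without both arrays. The B cell genes higher with age at an unadjusted p under 0.05 by limma also varied. They were 10 of 30 in the fit of 2 groups, 12 with the replicate block, 9 with array weights and 1 with the trended and robust variance. The shares of all genes were 2.37%, 2.79%, 3.74% and 2.06%. With quantile normalization 130 rose and 100 fell for diabetes (207 and 64 as deposited), and 157 rose and 162 fell between diabetic and 6-week mice (170 and 102). The cause of these differences was not tested. Signal near background limits what the dim probe sets can show.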
